A study of Caenorhabditis elegans with 20 samples.

Results

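The FMRFamide-like peptide genes, or *flp* genes, were taken as every row of the deposited table whose WormBase symbol is *flp-* followed by a number. That rule found 31 genes among the 46925 of the table, and it used no measured value. All 31 had a mean of at least 2 normalized counts over the 20 libraries, the minimum set for testing, and so all 31 are among the 17090 genes that were tested.

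Each *flp* gene encodes a precursor protein that is cut by proprotein convertases at pairs of basic residues, trimmed by a carboxypeptidase and amidated at its C-terminal end, which yields short peptides that end in arginine and phenylalanine amide. The peptides are packed into dense core vesicles, released mostly by neurons, and bind G protein-coupled receptors of the NPR, FRPR, DMSR and EGL-6 groups on other neurons, muscle and the intestine. In *C. elegans* they are known for setting locomotion, feeding, egg laying, sleep and arousal, and in the dauer, the long-lived larval stage that does not feed, for behaviours particular to that stage such as the standing and waving called nictation.

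The samples were whole dauers in 4 conditions of 5 replicates, about 24000 animals each, kept at 25 °C and treated for 3 days. All animals carried *daf-2(e1370)*, an insulin receptor allele that is temperature-sensitive and makes the animals dauers, and *daf-16(ot853)*, in which the FoxO transcription factor DAF-16 carries a fluorescent tag and a degron at its own locus. Strain OH14654 has no more than these, and OH17582 also carries *otSi2*, which expresses the plant protein TIR1, in a form made for this ligand, from the intestinal *ges-1* promoter. TIR1 destroys the tagged DAF-16 only with the synthetic auxin 5-Ph-IAA. The experimental condition was OH17582 with 100 µM 5-Ph-IAA in 0.2% ethanol. The no TIR1 control was OH14654 with the same 5-Ph-IAA, the no auxin control was OH17582 with 0.2% ethanol alone, and the condition called neither was OH14654 with ethanol alone. The study asked what intestinal DAF-16 does in dauers, and here that question is put to the *flp* genes, whose transcripts come mainly from cells in which DAF-16 should be left intact. The paper already reports that many noninsulin neuropeptide genes fell in dauers depleted of intestinal DAF-16. It also cites an earlier study in which the *flp* family rose during dauer formation. Which *flp* genes were in the paper's set was not compared here.

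Between 3989669 and 15585703 reads per library lay on genes (median 10219885), with experimental replicate 5 the shallowest, and replicates of one condition correlated at 0.958 to 0.987 (log2 values across genes, which are not independent replicates). The *daf-16* transcript lay between 7762 and 8897 normalized counts in the experimental condition and between 7968 and 9024 in the controls. Since the degron acts on the protein, that level does not check the depletion. All 15 panneuronal marker genes examined were measured. Oocyte and vitellogenin transcripts moved with the condition. All 11 oocyte genes examined and all 6 vitellogenin genes *vit-1* to *vit-6* were higher in the experimental condition. Summed oocyte counts were 2890 to 7191 against 1636 to 3242 in the controls, and summed vitellogenin counts were 8617 to 53264 against 0.991 to 14135. The paper lists yolk proteins among what the gut releases, and the gut is the tissue of the depletion. It also reports that the few animals not arrested as dauers were removed. Whether the vitellogenin and oocyte rises came from dauers or from animals past that stage was not tested. Of 5 hypodermal genes, 3 were called higher and 1 lower against the no TIR1 control. Against the no auxin control 2 were higher and 1 lower. Over all genes tested, 11.3% and 11.6% were called higher in these comparisons and 8.37% and 7.38% lower. The summed hypodermal count was 1323 to 1965 in the experimental condition against 1174 to 1821 in the controls. The summed count of 8 intestinal genes was 9852 to 11769 against 4885 to 6471. These values stand beside each comparison with the experimental condition below. Because the samples are whole animals, fewer cells of a type and less RNA per cell cannot be told apart.

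The levels of the *flp* genes spanned a wide range. Values below are normalized counts, in which a library's size factor has been divided out, and per kilobase means per kilobase of annotated exon. Over the 20 libraries *flp-9* stood highest with a median of 2203 per kilobase, followed by *flp-14* at 1918 and *flp-1* at 1684. Next came *flp-28* at 1068 and *flp-32* at 1062. At the low end were *flp-20*, known from touch receptor neurons, at 169 and *flp-34*, known from serotonergic neurons, at 155. Neighbours in this order mostly could not be separated: the ranges over libraries overlapped in 27 of 30 neighbouring pairs. The exceptions were the steps from *flp-1* to *flp-28*, from *flp-24* to *flp-20* and from *flp-34* to *flp-23*. The last of these genes, *flp-23*, was near the limit of detection, with 0 to 8 reads per library, and no change is read from it, although it was called lower in 1 of 20 leave-one-out fits (-1.59 (adjusted p = 0.0364) without no TIR1 replicate 1). The 5 genes with the highest counts held 38.4% of the summed *flp* count.

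**Figure D1:**
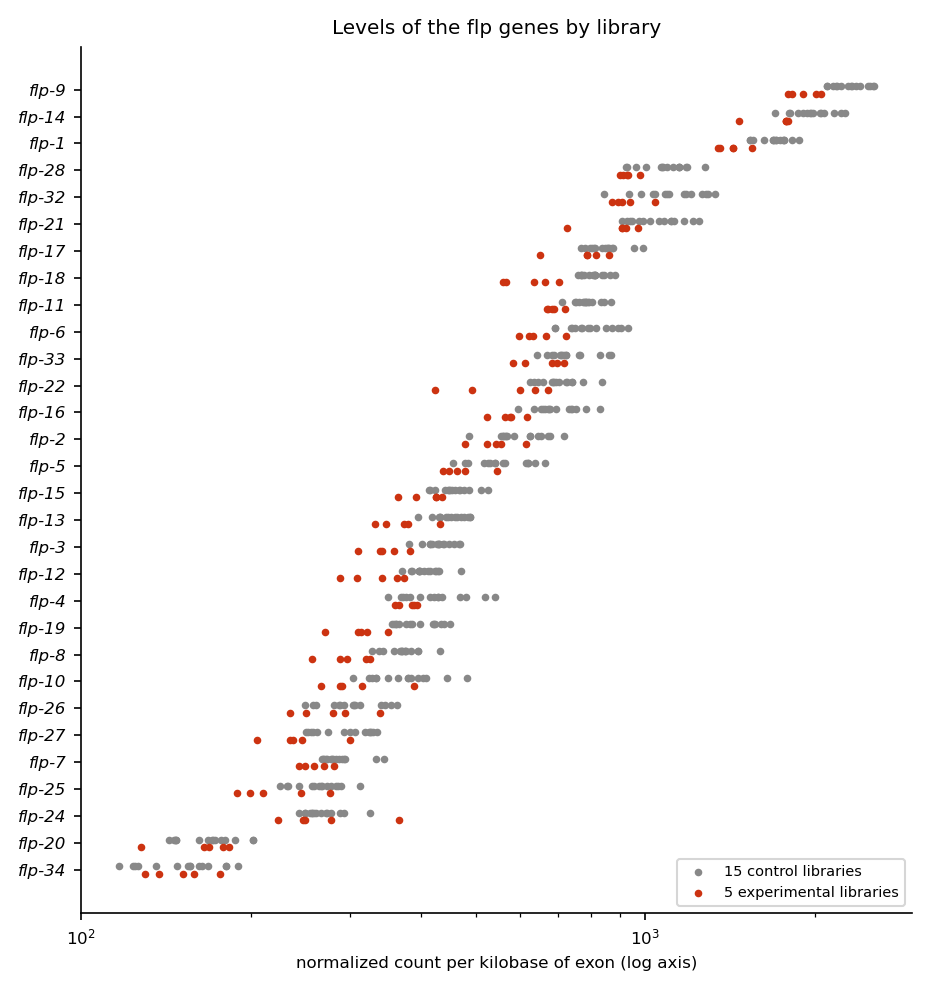
Normalized counts per kilobase of exon (x axis, log scale) of 30 *flp* genes in each of the 15 control libraries (grey) and each of the 5 experimental libraries (red), ordered by the median over all 20; *flp-23* is left out. The order runs from *flp-9* at the top to *flp-34* at the bottom, and for *flp-9*, *flp-18*, *flp-19* and *flp-8* the red points lie wholly to the left of the grey ones.

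In the experimental condition the *flp* genes were lower as a family, by small amounts. Against the no TIR1 control 20 of 31 fell and 0 rose (64.5% lower), where 8.37% of all genes tested were called lower and 11.3% higher. The fitted change was below 0 for 29 of 31, with a median of -0.27 on the log2 scale against -0.011 over all genes. Against the no auxin control 16 of 31 fell and 0 rose (51.6% lower, where 7.38% of all genes were called lower and 11.6% higher), 30 of 31 fitted changes were below 0, and the median was -0.23 against -0.017 over all genes. Among the 7358 genes with a mean of 80 to 1500, a range chosen after the values were seen and holding most *flp* genes, 11.6% and 10.3% were called lower. The 5 experimental libraries enter both comparisons, which are therefore not independent.

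A call here is an adjusted p under 0.05 from limma, with Benjamini-Hochberg adjustment over all 17090 genes and no requirement on size. The sizes matter for reading it: the called genes were 11.4% to 23.96% lower against the no TIR1 control, or 10.4% to 21.3% lower against the no auxin control, and 0 of 31 passed in either when a 1.5-fold change was also required, as 9.17% and 8.88% of all genes did. The 13 genes called against both controls were *flp-1*, *flp-3*, *flp-6*, *flp-8*, *flp-9*, *flp-11*, *flp-12*, *flp-13*, *flp-14*, *flp-16*, *flp-18*, *flp-19* and *flp-22*. A further 7 were called against the no TIR1 control only (*flp-2*, *flp-4*, *flp-5*, *flp-15*, *flp-21*, *flp-28* and *flp-32*) and 3 against the no auxin control only (*flp-10*, *flp-27* and *flp-33*). The other 8 (*flp-7*, *flp-17*, *flp-20*, *flp-23*, *flp-24*, *flp-25*, *flp-26* and *flp-34*) were called in neither comparison. Of the 13, 10 kept both calls whichever library was left out, and the exceptions were *flp-6*, *flp-14* and *flp-22*.

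**Figure D2:**
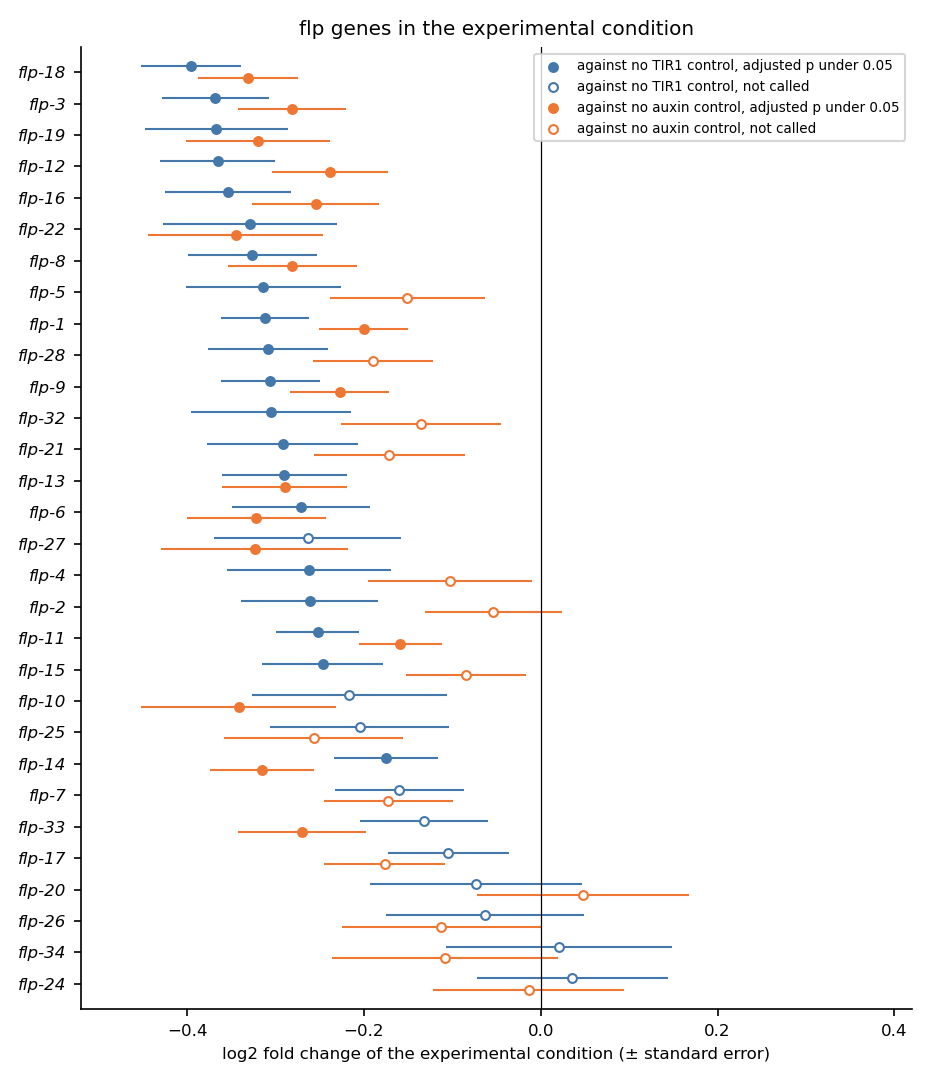
Fitted log2 fold change of 30 *flp* genes in experimental animals against the no TIR1 control (blue) and the no auxin control (orange), ordered by the first, with bars of 1 standard error and filled points for adjusted p under 0.05. Almost every point lies left of 0, *flp-18* farthest against the no TIR1 control at -0.40, and *flp-24*, *flp-34*, *flp-26* and *flp-20* lie near 0.

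The number of calls depended on the scale, the model, the libraries and the filter. Scaling each library by the panneuronal markers instead of the size factors left 12 and 7 genes lower against the no TIR1 and the no auxin control. Calls against both controls then remained for *flp-3*, *flp-8*, *flp-13*, *flp-18* and *flp-19*. With the summed oocyte transcripts as a covariate, which itself differs between the experimental condition and the controls, 3 genes were called against the no TIR1 control (*flp-3*, *flp-9* and *flp-11*), with 2 against the no auxin control (*flp-3* and *flp-10*), and the medians of the fitted changes moved from -0.27 and -0.23 to -0.20 and -0.17. Without experimental replicates 4 and 5, the libraries with the most yolk transcripts, left out after the data were seen, 14 and 10 genes were called lower. Only 13 and 8 of these were among the 20 and 16 calls of the main fit. The no auxin calls lost were *flp-1*, *flp-6*, *flp-8*, *flp-12*, *flp-19*, *flp-22*, *flp-27* and *flp-33*, and *flp-17* and *flp-25* were gained. Without the filter on low counts, 12 genes were called lower in each comparison. These counts were not set beside the share of all genes called in the same fits. Whether the *flp* genes lost more calls than other genes was therefore not tested.

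Of the 5 genes known from head neurons outside the sensory organs, all 5 fell against the no TIR1 control, as did 4 against the no auxin control. For this count and those of the groups below, 64.5% and 51.6% of the whole family were called lower against the no TIR1 and no auxin control. Over all genes tested the shares were 8.37% and 7.38%. Cell types named here and below come from reporter studies on record, most of them not of dauers, and no group of neurons was tested against another. *flp-18*, expressed in command and head interneurons and encoding ligands of NPR-1, NPR-4 and NPR-5 that tune locomotion and fat storage, had the lowest adjusted p against both controls. Its counts in replicates 1 to 5 of the experimental condition were 647, 618, 685, 551 and 544. They were 843, 817, 793, 794 and 748 in the no TIR1 control, 753, 757, 821, 748 and 739 in the no auxin control and 789.7, 792, 786, 858 and 774 with neither component. Every experimental value lay below every one of the 15 control values, and experimental replicates 4 and 5 were the lowest. The change was -0.40 ± 0.057 (SE, adjusted p = 9.08e-06) against the no TIR1 control, or 24% lower, and -0.33 ± 0.057 (SE, adjusted p = 1.04e-04) against the no auxin control. *flp-1*, made by the AVK interneurons and known to restrain body bending, gave 984, 984, 1060, 929.8 and 926 in the experimental condition and 1170, 1191, 1248, 1288 and 1162 in the no TIR1 control, 2 sets that did not overlap. Counts of *flp-1* in the no auxin control were 1064, 1115, 1171, 1212 and 1051, and those with neither 1155, 1158, 1209, 1207 and 1054, and only replicate 5 of each lay within the experimental range. It was lower by 19.4% and 12.9%, with log2 changes of -0.31 ± 0.050 (SE, adjusted p = 4.35e-05) and -0.20 ± 0.050 (SE, adjusted p = 0.00505).

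*flp-12*, found in the SMB neurons that steer head movement, stood at 313, 367, 379, 346 and 291 in the experimental condition, 402, 437, 478, 429.8 and 432 in the no TIR1 control, 374, 403, 402, 403 and 409.8 in the no auxin control and 418, 434, 420.3, 389 and 390.2 with neither. Of the 15 control values 14 lay above all 5 experimental ones, and only no auxin replicate 1 did not. The log2 change was -0.37 ± 0.065 (SE, adjusted p = 1.60e-04) and -0.24 ± 0.065 (SE, adjusted p = 0.0101) against the no TIR1 and no auxin control. For *flp-16*, known from the AIY interneurons among others, the experimental counts were 374, 339, 399, 365 and 372, the no TIR1 counts 429, 449, 479.8, 473 and 537, the no auxin counts 437, 507, 410.1, 384 and 476 and the counts with neither 426, 435, 486, 436 and 421. Again 14 of 15 control values lay above all experimental values, the exception being no auxin replicate 4. Its changes were -0.35 ± 0.071 (SE, adjusted p = 6.13e-04) and -0.25 ± 0.071 (SE, adjusted p = 0.012). *flp-2*, whose peptides promote arousal through FRPR-18 and are also released from the intestine under stress, was called against 1 of the controls only. It gave 292, 332, 319, 338 and 375 in the experimental condition, 357, 381, 438, 398 and 410.4 in the no TIR1 control, 297, 342, 345, 343 and 394 in the no auxin control and 342, 347, 414, 338 and 381 with neither. The experimental values lay mostly below the no TIR1 values and, apart from replicate 1, within the range of the no auxin values, and the changes were -0.26 ± 0.078 (SE, adjusted p = 0.0171) and -0.053 ± 0.078 (SE, adjusted p = 0.706). The first of these was not called without no TIR1 replicate 3, -0.22 (adjusted p = 0.0598), or without experimental replicate 1, -0.22 (adjusted p = 0.0621).

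**Figure D3:**
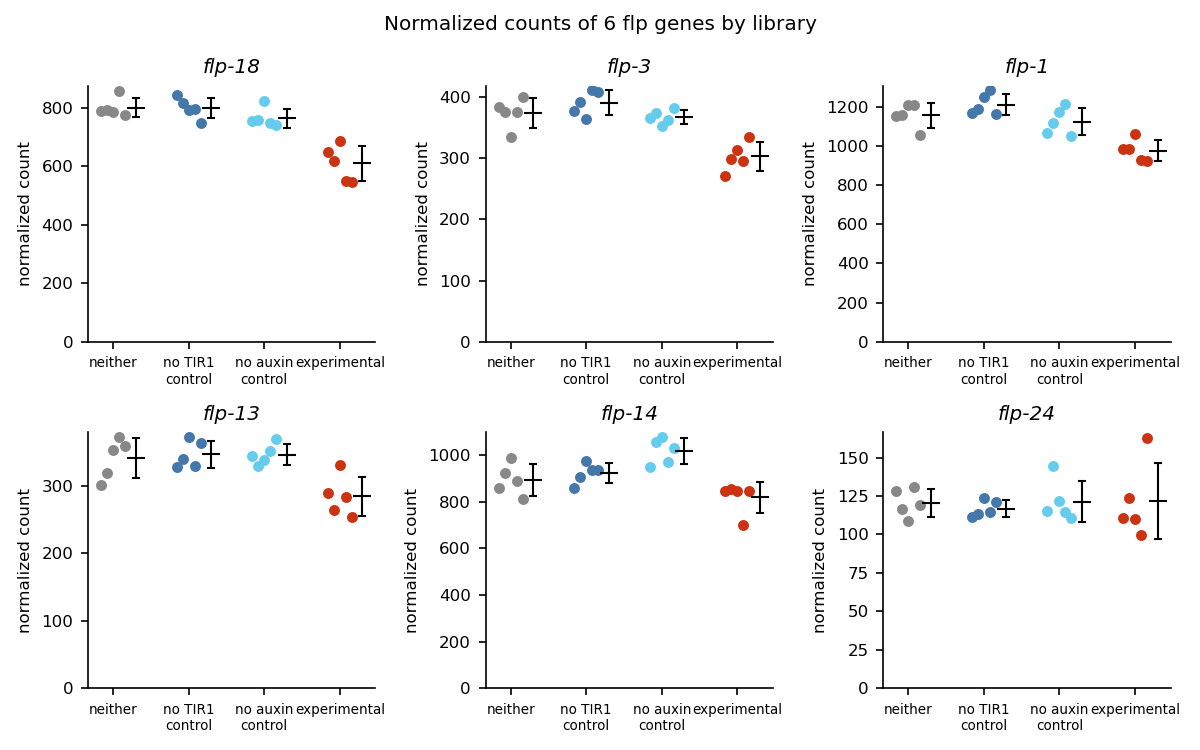
Normalized counts (y axis, from 0) of 6 *flp* genes in each library of the 4 conditions, with the mean and standard deviation of the 5 replicates beside the points. For *flp-18* all 5 experimental values (544 to 685) lie below all control values (739 to 858), for *flp-3*, *flp-1*, *flp-13* and *flp-14* the experimental values lie low with some overlap, and for *flp-24* they spread across the control range.

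Of the 6 genes known from other sensory neurons, 4 fell against the no TIR1 control, whereas 2 did so against the no auxin control. *flp-3*, of the IL1 neurons at the lips and known for the mating behaviour of males, had counts of 271, 298, 313, 296 and 335 in the experimental condition, 377, 392, 363, 411 and 408 in the no TIR1 control, 366, 374, 352, 362 and 382 in the no auxin control and 384, 374, 334, 376 and 399.5 with neither. All experimental values were below all values of the no TIR1 and no auxin controls, and they met the control range only at replicate 3 of the condition with neither. The change was -0.37 ± 0.061 (SE, adjusted p = 5.90e-05), or 22.5% lower, and -0.28 ± 0.061 (SE, adjusted p = 0.0013), and *flp-3* was the one *flp* gene called against both controls with the oocyte covariate. *flp-6*, of the ASE taste neurons and the AFD thermosensory neurons, gave 462, 528, 488, 454 and 437 in the experimental condition, 539.9, 583, 638, 504 and 596 in the no TIR1 control, 504, 660.5, 680.5, 548 and 578 in the no auxin control and 563, 541, 653, 562 and 621 with neither. One experimental value, replicate 2, lay within the control range and the others below it. Its changes were -0.27 ± 0.078 (SE, adjusted p = 0.014) and -0.32 ± 0.078 (SE, adjusted p = 0.00402), the first of which was not called without no TIR1 replicate 3, -0.23 (adjusted p = 0.0522).

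*flp-7*, which in adults is released by the ASI neurons and acts on NPR-22 in the intestine to raise fat loss, was not called. The experimental counts were 188, 212, 203, 183 and 195, the no TIR1 counts 214, 209.9, 251, 205 and 218, the no auxin counts 201, 216, 259.5, 211 and 221 and those with neither 203, 221, 205, 209 and 202. The values overlapped, with the highest readings in replicate 3 of both the no TIR1 and no auxin controls. The changes were -0.16 (95% interval -0.31 to -0.0093, adjusted p = 0.136) and -0.17 (95% interval -0.32 to -0.022, adjusted p = 0.106). *flp-21*, a ligand of NPR-1 that acts on social feeding, changed by -0.29 ± 0.085 (SE, adjusted p = 0.0152) and -0.17 ± 0.085 (SE, adjusted p = 0.177), and without experimental replicate 4 the first was -0.22 (adjusted p = 0.0642). *flp-4*, a ligand of NPR-4, was just past the threshold against the no TIR1 control at -0.26 ± 0.093 (SE, adjusted p = 0.0474), and 12 of the 20 fits that left out 1 library did not call it, with a value of -0.20 (adjusted p = 0.158) without no TIR1 replicate 5. For *flp-20*, which acts in arousal through FRPR-3, the estimates were -0.073 (95% interval -0.32 to 0.17) and 0.048 (95% interval -0.20 to 0.29). These intervals overlap those of *flp-3*, -0.49 to -0.24 and -0.41 to -0.16, and the difference between *flp-20* and *flp-3* was not tested.

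Of the 4 genes of the neurons that sense oxygen and carbon dioxide, 2 fell when set against the no TIR1 control, with 3 against the no auxin control. *flp-19*, of the BAG and URX neurons, stood at 234.8, 215, 207, 181 and 209.6 in the experimental condition, 282, 245, 302, 239.7 and 284 in the no TIR1 control, 242, 267, 257, 258 and 282 in the no auxin control and 290.4, 238, 294, 252 and 242 with neither. All 5 experimental values lay below all 15 control values, by a margin of a few counts at experimental replicate 1. Its changes were -0.37 ± 0.081 (SE, adjusted p = 0.00156) and -0.32 ± 0.081 (SE, adjusted p = 0.0057). *flp-8*, of the URX neurons, behaved in the same way with 206, 232, 229, 212 and 183 in the experimental condition, 264, 268, 274, 265 and 257 in the no TIR1 control, 234, 263, 269, 282 and 242 in the no auxin control and 264, 268, 309, 245 and 283 with neither. The experimental and control values met without overlap, at 232 and 234, and the changes were -0.33 ± 0.073 (SE, adjusted p = 0.00177) and -0.28 ± 0.073 (SE, adjusted p = 0.00698). *flp-10* and *flp-17* encode ligands of EGL-6 that restrain egg laying, and both are known to act in nictation of dauers. *flp-10* changed by -0.22 ± 0.11 (SE, adjusted p = 0.19), or -0.30 (adjusted p = 0.0497) without experimental replicate 5, and by -0.34 ± 0.11 (SE, adjusted p = 0.03). The second was not called in 5 of 20 leave-one-out fits, where its value without no auxin replicate 5 was -0.26 (adjusted p = 0.101). *flp-17* gave -0.10 ± 0.068 (SE, adjusted p = 0.331) and -0.18 ± 0.068 (SE, adjusted p = 0.0742), called in neither, though without the shallow experimental replicate 5 the second was -0.21 (adjusted p = 0.0342).

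Among the 3 genes of the neurons that bring on sleep, *flp-11* and *flp-13* fell against both controls and *flp-24* did not. *flp-13*, which the ALA neuron releases to quiet the animal after cellular stress and whose receptor is DMSR-1, had counts of 289.5, 264, 330.2, 284 and 253 in the experimental condition, 329, 340.1, 372, 329.5 and 363 in the no TIR1 control, 344, 329, 338, 351 and 369.7 in the no auxin control and 302, 319.5, 353, 373 and 359 with neither. Of the experimental values 4 lay below all 15 controls, and replicate 3 lay within their range. The changes were -0.29 ± 0.071 (SE, adjusted p = 0.00371) and -0.29 ± 0.071 (SE, adjusted p = 0.00407). *flp-11*, the main sleep-inducing peptide gene of the RIS neuron, gave 497, 497, 506, 534 and 509 in the experimental condition, 627, 580.2, 597, 583 and 644 in the no TIR1 control, 559, 528, 586, 577 and 589.5 in the no auxin control and 566, 574, 617, 555 and 582 with neither. Experimental values stayed below all no TIR1 values and below all others but no auxin replicate 2. Its changes of -0.25 ± 0.047 (SE, adjusted p = 2.49e-04) and -0.16 ± 0.047 (SE, adjusted p = 0.0169) had the smallest standard error of any *flp* gene.

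*flp-24*, which also acts in ALA for the same kind of sleep, ran from 99.8 to 163 in the experimental condition and from 109 to 145 in the controls, with both experimental extremes in replicates 4 and 5. The estimates were 0.036 (95% interval -0.19 to 0.26) and -0.014 (95% interval -0.24 to 0.21). Without experimental replicate 5 the first was -0.075 (adjusted p = 0.672). The difference between the 2 ALA genes, log2 *flp-13* minus log2 *flp-24*, was 1.24 ± 0.38 (SD, n = 5) in the experimental condition, 1.56 ± 0.027 in the no TIR1 control and 1.51 ± 0.21 in the no auxin control. Experimental minus control, this was -0.33 and -0.28, about the size of the *flp-13* changes. No difference was called after adjustment over the 2 comparisons, with p = 0.0317 and 0.198 in two-sided exact permutation tests and adjusted p = 0.0634 and 0.198. With the spread of the experimental values, a difference of that size is not excluded. This pair was chosen after its values were seen, which the p-values do not allow for.

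The 2 genes placed here in the pharyngeal group, *flp-5* and *flp-15*, were called lower against the no TIR1 control but not against the no auxin control. Each *flp* gene was placed in 1 group at most, and expression of members of the other groups in the pharynx was not examined. *flp-5*, whose peptides excite the pharyngeal muscle, changed by -0.31 ± 0.088 (SE, adjusted p = 0.0114) and -0.15 ± 0.088 (SE, adjusted p = 0.26). *flp-15* changed by -0.25 ± 0.068 (SE, adjusted p = 0.0104) and -0.084 ± 0.068 (SE, adjusted p = 0.445), and its experimental counts of 163 to 195 lay below all no TIR1 counts, which began at 198.

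The other 11 genes were assigned to no group of neurons here, since they are known from many cells or from too few studies. Of these, 5 fell against each control. *flp-9*, the gene with the highest level, gave 1298, 1131, 1207, 1152 and 1269 in the experimental condition, 1611, 1362, 1464, 1450 and 1606 in the no TIR1 control, 1407, 1379, 1474, 1330 and 1497 in the no auxin control and 1584, 1331, 1568, 1382 and 1523 with neither. Its experimental values lay wholly below the 15 control values, and the changes were -0.31 ± 0.056 (SE, adjusted p = 2.22e-04) and -0.23 ± 0.056 (SE, adjusted p = 0.00456). *flp-14*, expressed in many neurons, stood at 848, 855, 846, 699.6 and 847 in the experimental condition, 861, 906, 977, 936 and 935 in the no TIR1 control, 947, 1058, 1078, 972 and 1032 in the no auxin control and 858, 923, 987, 889 and 810.5 with neither. Here 4 experimental values were within 9 counts of each other and replicate 4 was far below them, and the no auxin control was the highest of the conditions. The change was -0.32 ± 0.059 (SE, adjusted p = 2.95e-04) against the no auxin control and -0.18 ± 0.059 (SE, adjusted p = 0.0365) against the no TIR1 control, and without experimental replicate 4 the latter was -0.12 (adjusted p = 0.142). That call was also lost without no TIR1 replicate 2, 3, 4 or 5.

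*flp-22* gave 332, 315, 297, 244 and 209.6 in the experimental condition, 326, 366, 383, 343 and 318 in the no TIR1 control, 338, 414, 341, 359 and 308 in the no auxin control and 314, 339, 367, 348 and 358 with neither. Experimental replicates 4 and 5 were far below the rest, and replicates 1 and 2 lay within the control range. The changes of -0.33 ± 0.10 (SE, adjusted p = 0.018) and -0.35 ± 0.10 (SE, adjusted p = 0.0137) were -0.23 (adjusted p = 0.0684) and -0.25 (adjusted p = 0.0514) without experimental replicate 5, and the first call was also lost without experimental replicate 4 or no TIR1 replicate 3 and the second without no auxin replicate 2. *flp-28* gave 508, 493, 535, 499 and 509 in the experimental condition, 628, 586, 597, 649.5 and 697 in the no TIR1 control, 506, 526, 628, 645 and 611 in the no auxin control and 628, 548, 508, 587 and 583 with neither. The experimental values lay below all no TIR1 values and overlapped those of the other 2 controls. Its changes were -0.31 ± 0.068 (SE, adjusted p = 0.00141) and -0.19 ± 0.068 (SE, adjusted p = 0.0509), the second just short of the threshold and past it in 6 of the 20 leave-one-out fits and with both count models. *flp-33* had 338, 321, 328, 288 and 274 in the experimental condition, 333, 322, 337, 340 and 359 in the no TIR1 control, 339.8, 409, 391, 324 and 405 in the no auxin control and 302, 335, 332, 315 and 358 with neither. Against the no TIR1 control its values overlapped widely, while 4 of 5 no auxin values lay above every experimental value, and the changes were -0.13 ± 0.072 (SE, adjusted p = 0.231) and -0.27 ± 0.072 (SE, adjusted p = 0.00867).

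The remaining members without a group were less clear. *flp-32* changed by -0.30 ± 0.090 (SE, adjusted p = 0.0167) and -0.14 ± 0.090 (SE, adjusted p = 0.337), the first call lost without no TIR1 replicate 3 or 4, where it was -0.27 (adjusted p = 0.0532) and -0.26 (adjusted p = 0.056). *flp-27* changed by -0.26 ± 0.11 (SE, adjusted p = 0.0848) and -0.32 ± 0.11 (SE, adjusted p = 0.0322). Leaving out no TIR1 replicate 1 or experimental replicate 3 brought the first past the threshold, and leaving out any of 6 libraries lost the second, as in -0.26 (adjusted p = 0.0987) without experimental replicate 2. *flp-25* was called in neither at -0.20 ± 0.10 (SE, adjusted p = 0.174) and -0.26 ± 0.10 (SE, adjusted p = 0.0799), and in both without experimental replicate 5, at -0.28 (adjusted p = 0.0419) and -0.34 (adjusted p = 0.016). *flp-26* gave -0.063 (95% interval -0.29 to 0.17) and -0.11 (95% interval -0.34 to 0.12). *flp-34*, known to act in olfactory learning, gave 0.020 (95% interval -0.24 to 0.28) and -0.11 (95% interval -0.37 to 0.15). The intervals of *flp-26* and *flp-34* hold no change. Against the no TIR1 control, where called decreases ran from -0.40 to -0.18, the lower limit of *flp-26* misses the larger ones. That of *flp-34* reaches only the smallest, *flp-14* at -0.18. Against the no auxin control the lower limits reach about as far as the largest called decrease, -0.35.

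Counted by library rather than by fit, all 5 experimental values lay below all 15 control values for 4 of 31 *flp* genes (12.9%), namely *flp-8*, *flp-9*, *flp-18* and *flp-19*, where 2.50% of all genes tested did so. No *flp* gene had all 5 above, where 4.53% of all genes did. Against the 5 no TIR1 values alone the experimental values were wholly lower for 13 of 31 (5.92% of all genes), and against the 5 no auxin values alone for 6 of 31 (4.95%).

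No *flp* gene was called for either component of the degradation system on its own. With 5-Ph-IAA alone against neither, 0 of 31 were called by limma (0.0410% of all genes were) and 0 by edgeR or DESeq2. At an unadjusted p under 0.05 (4.89% of all genes) there was 1, *flp-28* at 0.15 ± 0.068 (SE, adjusted p = 0.976). With TIR1 alone against neither, 0 of 31 were called by limma (0.603% of all genes were) and 0 by edgeR or DESeq2. The unadjusted threshold (10.5% of all genes) passed 3, namely *flp-14* at 0.19 ± 0.059 (SE, adjusted p = 0.172), *flp-33* at 0.18 ± 0.072 (SE, adjusted p = 0.338) and *flp-32* at -0.20 ± 0.090 (SE, adjusted p = 0.419). The medians over the 31 were 0.039 and -0.022. *flp-14* and *flp-33* thus stood high in the no auxin control, against which their estimated decreases were the larger, and that contrast between controls was not tested.

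The interaction asks whether 5-Ph-IAA changed a gene by a different amount in animals with TIR1 than in animals without it. It was lower for 12 of 31 and higher for 0 (38.7% lower, where 3.60% of all genes were lower and 7.17% higher), with a median of -0.26 over the 31 and -0.020 over all genes. The largest were *flp-14* at -0.36 ± 0.083 (SE, adjusted p = 0.00389), *flp-19* at -0.36 ± 0.11 (SE, adjusted p = 0.0441) and *flp-16* at -0.35 ± 0.10 (SE, adjusted p = 0.0218). The next were *flp-3* at -0.35 ± 0.086 (SE, adjusted p = 0.00778), *flp-28* at -0.34 ± 0.10 (SE, adjusted p = 0.0219) and *flp-18* at -0.33 ± 0.080 (SE, adjusted p = 0.00671). The other 6 were *flp-1*, *flp-9*, *flp-11*, *flp-12*, *flp-13* and *flp-33*, at -0.32 to -0.22. The interaction is the change against the no TIR1 control less the change with TIR1 alone. For *flp-14* these were -0.18 and 0.19, and for *flp-33* -0.13 and 0.18, so both parts enter. Only 6 of the 12, *flp-1*, *flp-3*, *flp-14*, *flp-16*, *flp-18* and *flp-28*, kept the call whichever library was left out. Without the filter on low counts 5 of the 12 were called (*flp-1*, *flp-3*, *flp-11*, *flp-14* and *flp-18*). The count fell to 7 without no TIR1 replicate 3, without no TIR1 replicate 5 or without no auxin replicate 3, to 4 without experimental replicates 4 and 5, and to 1 with panneuronal scaling (*flp-14*) or the oocyte covariate (*flp-3*).

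The *flp* genes are spread over all chromosomes with 13 of 31 on X, 5 each on III and IV, 3 each on II and V and 2 on I. On X, 10 of 13 fell against the no TIR1 control with 6 of 13 against the no auxin control (9.27% and 8.68% of all X genes were called lower), and on the autosomes 10 of 18 fell against each (8.21% and 7.09%). The decrease was thus present in both sets, and the difference between them was not tested. *flp-28*, *flp-3* and *flp-2* lie within 7932 bases of each other on the minus strand of X, from 10087314 to 10095245 (WBcel235), inside a gene of the opposite strand, W07E11.1, with no exon in common. These 3 neighbours were each lower against the no TIR1 control, and only *flp-3* was also called against the no auxin control. Exons of *flp-8*, *flp-11*, *flp-16*, *flp-19* and *flp-33* share 5 to 21 bases with a gene of the opposite strand. Whether the counting used strand is not given in the sources used here, so a few of their reads could belong to the partner.

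Summed over the family, the experimental libraries stood apart. Over the 5 experimental libraries the *flp* counts summed to 10955 ± 328 (SD, n = 5), and the controls gave 13212 ± 504 (no TIR1), 12808 ± 474 (no auxin) and 12854 ± 320 (neither). Its range of 10434 to 11343 in the experimental condition lay below the 12026 to 13772 of the 15 controls. The 15 panneuronal markers moved less as a set: their sum was 14876 to 15271 against 15230 to 15944 in the controls. Against the no TIR1 control 1 was higher and 5 were lower, where 8.37% of all genes were called lower. Against the no auxin control 1 was higher and 4 were lower (7.38% of all genes), and the medians were -0.079 and -0.094. Single markers differed: *unc-104* changed by -0.27 and -0.30 and *snt-1* by -0.23 and -0.26, about as much as called *flp* genes. The 1 that was higher, *tbb-1*, changed by 0.19 and 0.23 and adds to the sum. The ratio of the *flp* sum to the panneuronal sum was 0.693 to 0.751 in the experimental condition and 0.767 to 0.878 in the controls, which again did not overlap.

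**Figure D4:**
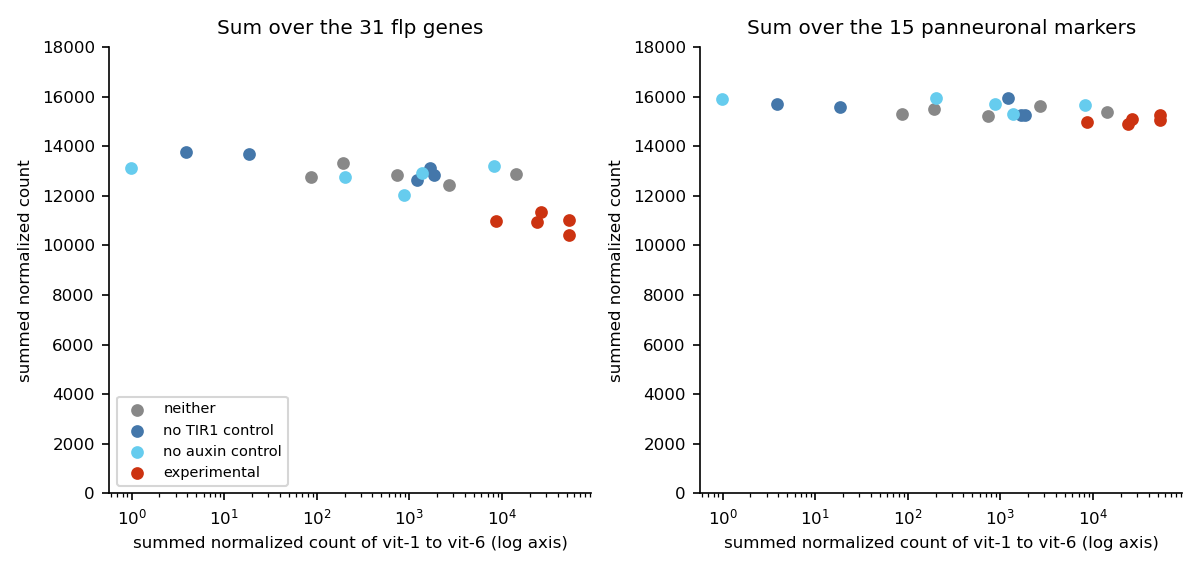
Summed normalized counts (y axes, from 0) of the 31 *flp* genes (left) and of the 15 panneuronal markers (right) in each library against the summed count of *vit-1* to *vit-6* (x axis, log scale), coloured by condition. On the left the 5 experimental libraries (10434 to 11343) lie below the controls (12026 to 13772), and 4 of them lie at vitellogenin levels above all controls.

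Vitellogenin and oocyte transcripts differed between libraries of one condition as well, and the *flp* sum can be set beside them. The control libraries with the most vitellogenin transcripts were replicate 5 with neither component, at 14135, and no auxin replicate 5, at 8287. Their *flp* sums of 12874 and 13212 were within the range of the other controls. Experimental replicate 2 had the least vitellogenin of its condition, 8617, and the least oocyte transcript, 2890, and its *flp* sum was 11002, the median of the 5 experimental libraries. Experimental replicate 4 had the most vitellogenin, 53264, and the lowest *flp* sum, 10434. Only replicate 2 of the experimental libraries fell within the vitellogenin range of the controls, and the part of vitellogenin and oocyte transcripts in the lower *flp* sum was not tested.

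Of 11 genes that process the peptides or serve dense core vesicles, 6 fell and 1 rose against the no TIR1 control and 7 fell and 0 rose against the no auxin control, where 8.37% and 7.38% of all genes were called lower. *pamn-1*, *kpc-1* and *unc-31* were called in neither comparison. *egl-3*, the proprotein convertase that cuts most *flp* precursors, had counts of 10640 to 11260 in the experimental condition and 11200 to 13460 in the controls, which overlapped at 1 no auxin library, and changed by -0.22 ± 0.039 (SE, adjusted p = 1.35e-04) and -0.17 ± 0.039 (SE, adjusted p = 0.00247). *egl-21*, the carboxypeptidase that trims the cut peptides, ran from 5014 to 5416 against 5423 to 6088, with no overlap, and changed by -0.20 ± 0.031 (SE, adjusted p = 2.62e-05) and -0.13 ± 0.031 (SE, adjusted p = 0.00248). *sbt-1*, the chaperone of EGL-3, changed by -0.24 ± 0.046 (SE, adjusted p = 3.60e-04) and -0.16 ± 0.046 (SE, adjusted p = 0.0173), and the second was not called without no auxin replicate 3 or 5, at -0.14 (adjusted p = 0.0509) and -0.12 (adjusted p = 0.0626). *pghm-1*, one of the amidating enzymes, changed by -0.29 ± 0.041 (SE, adjusted p = 9.33e-06) and -0.18 ± 0.041 (SE, adjusted p = 0.0023). *ida-1*, a dense core vesicle protein, and the convertase *bli-4* fell in both comparisons, and *pgal-1*, another amidating enzyme, against the no auxin control only. *aex-5*, a convertase that acts in the intestine and that the study singled out in these samples, was the 1 that rose, at 0.30 ± 0.10 (SE, adjusted p = 0.0328) against the no TIR1 control and 0.10 ± 0.10 (SE, adjusted p = 0.538) against the no auxin control. Its call was lost in 5 of the 20 leave-one-out fits, as at 0.23 (adjusted p = 0.113) without experimental replicate 3. With panneuronal scaling 6 processing genes were still lower against the no TIR1 control, with 0 against the no auxin control.

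Of 16 receptors with known FLP ligands, 3 fell against the no TIR1 control with 2 against the no auxin control, while 0 rose. The share called lower over all genes was 8.37% and 7.38% in these comparisons, and whether the receptors differ from it was not tested. *npr-22*, the receptor through which FLP-7 acts on the intestine, showed the largest decrease among the genes of the pathway that were called. Its counts were 105, 107, 75.3, 84.7 and 96.0 in the experimental condition, 208, 163, 152, 158 and 190.3 in the no TIR1 control, 167, 154, 145, 172 and 168 in the no auxin control and 206, 179, 146, 149.5 and 179 with neither. All 5 experimental values lay below all 15 controls, and the changes of -0.89 ± 0.11 (SE, adjusted p = 1.20e-06) and -0.78 ± 0.11 (SE, adjusted p = 8.14e-06) exceeded those of every *flp* gene that was called. *dmsr-1*, the FLP-13 receptor, changed by -0.29 ± 0.070 (SE, adjusted p = 0.0038) and -0.21 ± 0.070 (SE, adjusted p = 0.0362), the second lost in 7 of 20 leave-one-out fits, as at -0.17 (adjusted p = 0.107) without no auxin replicate 4. *npr-1*, the receptor of FLP-18 and FLP-21, was low throughout at 11.6 to 29.2 counts and changed by -0.64 ± 0.21 (SE, adjusted p = 0.0345) and -0.57 ± 0.21 (SE, adjusted p = 0.0665). The first call was lost in 6 of 20 leave-one-out fits, with -0.53 (adjusted p = 0.0918) without experimental replicate 5. In the *frpr* and *dmsr* families taken by symbol, 30 of 36 genes were tested, and 2 (*dmsr-1* and *dmsr-6*) and 1 (*dmsr-1*) were called lower, which is no more than the share of all genes given above, with *dmsr-6* lost without experimental replicate 5 at -0.39 (adjusted p = 0.0622).

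**Figure D5:**
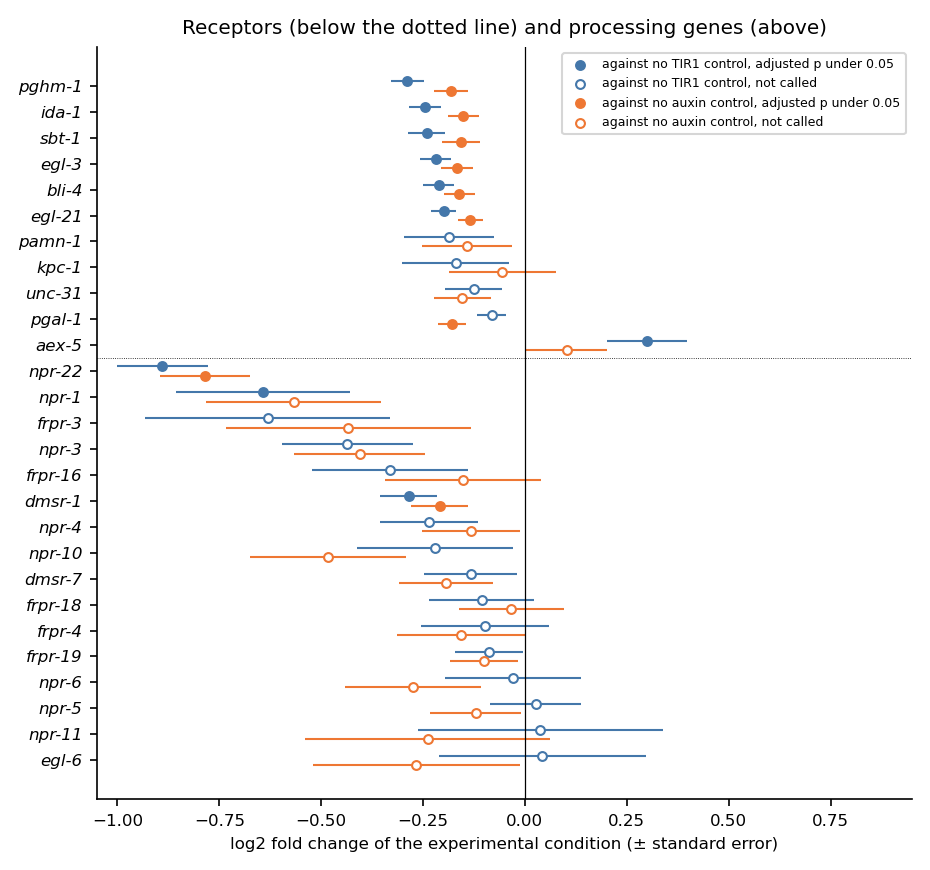
Fitted log2 fold change of 11 processing and dense core vesicle genes (above the dotted line) and 16 receptor genes (below it) in experimental animals against the no TIR1 control (blue) and the no auxin control (orange), with bars of 1 standard error and filled points for adjusted p under 0.05. Most processing genes sit between -0.29 and -0.13, *aex-5* lies to the right of 0, and *npr-22* lies farthest to the left at -0.89 and -0.78.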

How the data were processed

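RNA from whole dauers was depleted of ribosomal RNA and sequenced from one end, 20 libraries in all. Per the labels and the methods of the study, the authors trimmed reads with Trimmomatic, aligned them with STAR to WS284, counted them with featureCounts and normalized them with DESeq2. Tool versions and the strand setting are not given in the sources used here. The deposited signal values are normalized counts, reads divided by a size factor: multiplied back, 100% were whole reads within 0.01, and recomputed size factors differed by at most 3.89e-06.

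Here limma 3.58.1 (R 4.3.3) with a mean-variance trend was fitted to log2(normalized count + 1), with 1 mean per condition over the 20 libraries, for 17090 genes with a mean of at least 2, so a fold change is on that scale. Calls have a Benjamini-Hochberg adjusted p under 0.05. Alternatives were the pseudocount, filter, 1.5-fold cutoff, quantile and panneuronal scaling, replicate block, an oocyte covariate, fits of only the compared conditions, edgeR 4.0.16 and DESeq2 1.42.0 on the recovered reads, and each library left out. Code was tested on simulated data. Exon lengths come from the Ensembl annotation of WBcel235, in which 46921 of the 46925 table genes were found, and 44113 have a symbol in the name table used. Precursor and promoter sequences were not analysed here.

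Described in full are the *flp* genes called against both controls, ordered by the larger adjusted p (at most 12), those called for a single component or the interaction, the 3 highest per kilobase, and *flp-2* and *flp-7*. The members, gene lists and tests were chosen with earlier results of these data known. Replicates are the samples the labels number as such, and the study calls them biological.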

Additional observations from a re-analysis of the deposited data

Results flagged for a closer look

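In 8 of the 124 groups of 5 libraries examined (31 genes in 4 conditions), 1 library lay far from the other 4 by Dixon's criterion, and chance alone gives about 1 in 20. Low values were *flp-12* at 374 in no auxin replicate 1 (the others 402 to 410), *flp-14* at 699.6 in experimental replicate 4 (846 to 855), and *flp-21* at 323 in experimental replicate 4 (403 to 431). High values were *flp-7* at 251 in no TIR1 replicate 3 (205 to 218), *flp-16* at 486 with neither component in replicate 3 (421 to 436), and *flp-21* at 539 in no auxin replicate 5 (412 to 432). *flp-18* was high in 2 libraries, at 858 with neither component in replicate 4 (774 to 792) and at 821 in no auxin replicate 3 (739 to 757).

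The response to 5-Ph-IAA was called different between animals with and without TIR1 for 12 of 31 *flp* genes, by the interaction term of the limma fit with adjusted p under 0.05. All 12 were lower (38.7% of the family, where 3.60% of all genes tested were called lower). The differences, on the log2 scale, were -0.27 for *flp-1*, -0.35 for *flp-3*, -0.25 for *flp-9*, -0.22 for *flp-11*, -0.32 for *flp-12* and -0.32 for *flp-13*. They were -0.36 for *flp-14*, -0.35 for *flp-16*, -0.33 for *flp-18*, -0.36 for *flp-19*, -0.34 for *flp-28* and -0.31 for *flp-33*. Adjusted p-values ran from 0.00389 (*flp-14*) to 0.0483 (*flp-33*). With 1 library left out, *flp-13*, *flp-19* and *flp-33* each lost the call in 13 of 20 fits. *flp-9* lost it in 11, *flp-11* in 4 and *flp-12* in 1, and the other 6 kept it. edgeR did not call *flp-33*, and DESeq2 called neither *flp-13* nor *flp-33*.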

How the results depend on the processing

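Every *flp* gene called in any of the fits tried was lower, except in the TIR1 alone comparison with a replicate block, where *flp-14* was called higher. Against the no TIR1 control the main count of 20 became 0 with a 1.5-fold cutoff, 12 without the filter, 12 with panneuronal scaling and 3 with the oocyte covariate, and stayed between 14 and 22 in the other fits, where leaving out 1 library gave 14 to 22. Against the no auxin control 16 became 0 with a 1.5-fold cutoff, 12 without the filter, 7 with panneuronal scaling, 2 with the oocyte covariate and 10 without experimental replicates 4 and 5 (chosen after seeing the data), and leaving out 1 library gave 14 to 17. For the interaction 12 became 0 with a 1.5-fold cutoff, 5 without the filter, 1 with panneuronal scaling, 1 with the oocyte covariate, 4 without experimental replicates 4 and 5 and 4 without the replicates 5 of all conditions (both chosen after seeing the data), and leaving out 1 library gave 7 to 11. The cause of these changes was not tested, except that a size requirement can only remove calls. Apart from the 1.5-fold cutoff against the no TIR1 and no auxin controls, these counts were not set beside the share of all genes called. edgeR and DESeq2 each gave 20 calls against the no TIR1 control, 18 with no auxin as the control, and 11 and 10 for the interaction.

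The numbers were not taken to pair the replicates, since not every pair's deviations correlated above 0.1: over 30 same-numbered pairs r ran from -0.098 to 0.25 (median 0.049), 3 were over 0.1 and 12 were best with their own number. A replicate block gave 22, 19 and 15 calls for the no TIR1 comparison, the no auxin comparison and the interaction, 0 for 5-Ph-IAA alone and 1 for TIR1 alone (*flp-14*).

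Signs turned as follows. Against the no TIR1 control, the oocyte covariate gave 0.0018 for *flp-14* and 0.014 for *flp-22*. *flp-24* was -0.022 with quantile normalization, -0.0080 with DESeq2, -0.024 without experimental replicates 4 and 5 and -0.061 without the replicates 5, and leaving out 1 library gave -0.075 to 0.10. *flp-34* was -0.038 with quantile normalization and -0.043 to 0.11 with 1 library left out, and *flp-20* -0.13 to 0.015. Against the no auxin control, panneuronal scaling gave 0.028 for *flp-2* and 0.068 for *flp-24*, and the oocyte covariate 0.0078 for *flp-15*, -0.087 for *flp-20*, 0.0031 for *flp-24* and 0.019 for *flp-32*. *flp-20* was -0.0040 with quantile normalization, -0.049 without experimental replicates 4 and 5 and -0.020 without the replicates 5, and *flp-24* -0.12 to 0.052 with 1 library left out. Panneuronal scaling moved the median of all genes by under 0.1. The description of peptide copies and promoter motifs was not run.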
